A study of Mus musculus with 10 samples.

Results

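The genes described here are 10 genes of the dense-core secretory granule in mouse small cell lung cancer (SCLC) cells: the granins Chga, Chgb, Scg2, Scg3 and Vgf, the prohormone convertases Pcsk1 and Pcsk2, Scg5, whose product is a chaperone of the Pcsk2 enzyme, the carboxypeptidase gene Cpe, and Resp18, which encodes a granule-associated endocrine protein. They were chosen by symbol as a functional group, by a rule that used no values, but with earlier results of these data known. They are 10 of the 24391 genes counted. RNA sequencing covered 10 libraries, from 5 SCLC lines (G4314, G9351, G9488, G9529 and G9577) that were each sequenced in 2 conditions. In the MYCN-on condition (5 libraries) cells were kept with doxycycline; in the MYCN-off condition (5 libraries) the drug had been withdrawn for 4 days. The study asked which genes MYCN controls in these lines. Every line carried the same genotype in both conditions, given as Rb;p53 with TRE-MYCN, a MYCN transgene under a tetracycline-responsive element, and LSL-RTTA, the doxycycline-dependent activator behind a removable stop cassette. Neither the Cre nor the promoter that drives the activator is named in the labels. Each line gave 1 library per condition, so a single line has no replicate and the lines serve as the replicates. No line without the transgene was used here, so an effect of doxycycline and an effect of MYCN cannot be told apart.

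SCLC is a neuroendocrine tumour, and neuroendocrine cells store peptide hormones in dense-core granules that are released on demand. Granins are acidic proteins that aggregate with the cargo and help the granule to form at the trans-Golgi network. Inside the granule, the convertases cut prohormones at pairs of basic residues, the carboxypeptidase trims those residues off, and an amidating enzyme finishes many peptides. Granin levels, above all chromogranin A, are used in the clinic as markers of neuroendocrine tumours.

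The libraries held between 9586465 and 11960074 gene-assigned reads with MYCN on and between 9928420 and 11123998 with MYCN off. Mycn, given as TMM-scaled CPM (reads scaled to library size), averaged 737 ± 212 CPM in the 5 MYCN-on libraries and 118 ± 66.5 CPM in the 5 MYCN-off libraries (mean ± SD), was higher with MYCN on in all 5 lines and was 7.28-fold higher in the fit (log2 change 2.86, SE 0.38, edgeR adjusted p = 0.00421). The labels do not name the species that the transgene came from, and these reads may come from the transgene, from the mouse gene or from both. Line G9577 stood apart from the others in both conditions. Its summed level of 12 neuroendocrine markers was 289 CPM with MYCN on, and with MYCN off 262 CPM, against 4053 to 4597 CPM and 5659 to 7238 CPM in the same conditions of the other 4 lines. Its 12 mesenchymal markers summed to 4473 CPM with MYCN on, and with MYCN off to 19460 CPM, against 4.56 to 26.7 CPM and 3.23 to 23.7 CPM in the others, and its 6 epithelial markers to 11.5 CPM with MYCN on, and with MYCN off to 41.1 CPM, against 1631 to 1999 CPM and 1722 to 3374 CPM. Dll3 was at 0 in both G9577 libraries, as were Thy1 of the mesenchymal list, Cdh5 of the 3 endothelial markers, and Ptprc, Cd3e and Tyrobp of the immune list, while Lum of the mesenchymal list was at 0 in all libraries of the other 4 lines. Immune markers (6 genes) stayed at or below 5.90 CPM in sum in every library, and the endothelial sum was at most 2.36 CPM in the other 4 lines and 35.7 and 130.9 CPM in G9577 with MYCN on and off. The markers of G9577 therefore go against a neuroendocrine SCLC label, and the fitted values of the 10 genes and of the related genes are given with and without this line.

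Most of the granule genes tested were lower with MYCN on. Of the 9 genes that passed the filter on low counts, 7 fell (Pcsk1, Scg2, Pcsk2, Chga, Chgb, Scg5 and Cpe), from 6.98-fold for Pcsk1 to 1.47-fold for Cpe, while Scg3 and Vgf did not pass the test (adjusted p under 0.05, edgeR quasi-likelihood F test with the line as a block). Among all 12835 genes tested, 15.6% were called lower and 15.3% higher. None of the 9 was called higher, and none reached an unadjusted p under 0.05 in that direction with edgeR, DESeq2 or limma-voom. The median log2 change (MYCN on minus MYCN off) of the 9 was -1.13, against -0.08 over all genes tested, and 8 of the 9 were lower in all 5 lines, which held for 23.2% of genes tested. Without G9577, 8 of the 10 genes fell, now including Resp18, beside 17.4% of 12925 genes lower and 17.4% higher. The median in that fit was -1.30, over 10 genes since Resp18 (log2 change -2.75) was added. Each of the 7 genes called with all lines fell less without G9577, such as Chga (log2 change -1.64, against -1.87 with all lines). The count depended most on line G4314: without it 4 of 9 were called (Chga, Pcsk1, Pcsk2 and Scg2), while the share of all 12829 genes called lower was 7.14%, so calls were fewer among all genes too. The neuroendocrine marker sum of the other 4 lines was lower with MYCN on as well, as given above, and its part in these changes was not tested. In bulk RNA, fewer granule-rich cells and less granule RNA per cell cannot be told apart.

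**Figure D1:**
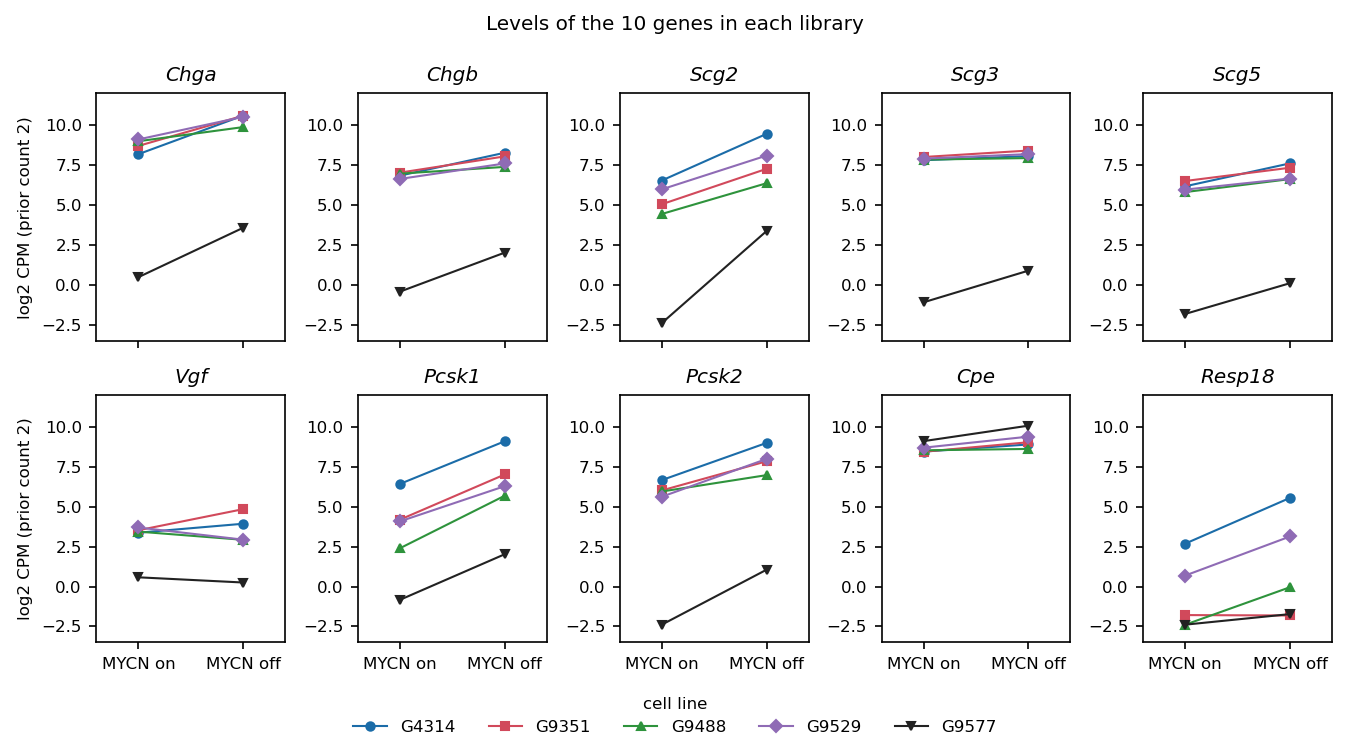
Level of each of the 10 genes as log2 CPM (prior count 2, vertical axis) in each library, MYCN on at the left and MYCN off at the right of each panel, with a line joining the 2 libraries of each cell line. Points fall to the left for Chga, Chgb, Scg2, Scg5, Pcsk1 and Pcsk2 in every line, and G9577 (black) lies far below the others for most genes but above them for Cpe.

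The stretch before the annotated starts of these genes was read for 3 motifs, on both strands. They were the full cAMP response element (CRE) TGACGTCA, its core TGACG, and the E-box CACGTG that MYC-family proteins are known to bind. RefSeq promoter windows (GRCm38.p6, 250 bases before to 50 after the start) were found for 8 of the 10 genes, and Cpe and Vgf were not among them. The full CRE, the palindrome that CREB-family factors bind, was in 3 of the 8 windows (Chgb, Scg2 and Pcsk1) and in 1.79% of all 32851 windows. The core was in 7 of the 8, all but Resp18, and in 20.8% of all windows; each full CRE holds the core on both strands, overlapping. CACGTG was in none of the 8 and in 7.15% of all windows. The 110 bases before the start are printed for 6 genes to show where the motif lies, first the 3 with the full CRE, then Chga and Pcsk2 with the core alone, then Scg3, which has the core but did not pass the test. Letters run 5′ to 3′ on the gene's strand in GRCm38.p6, and capitals mark the CRE or its core on either strand.
Pcsk1 (chr13:75089747-75089856, plus strand): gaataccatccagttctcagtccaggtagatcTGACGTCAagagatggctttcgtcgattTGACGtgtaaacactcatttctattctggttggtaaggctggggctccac
Scg2 (chr1:79440027-79440136, minus strand): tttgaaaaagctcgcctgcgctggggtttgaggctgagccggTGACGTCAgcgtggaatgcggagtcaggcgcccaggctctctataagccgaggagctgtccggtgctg
Chgb (chr2:132781532-132781641, plus strand): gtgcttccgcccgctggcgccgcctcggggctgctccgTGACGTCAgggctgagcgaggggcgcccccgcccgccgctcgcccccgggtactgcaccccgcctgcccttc
Chga (chr12:102554831-102554940, plus strand): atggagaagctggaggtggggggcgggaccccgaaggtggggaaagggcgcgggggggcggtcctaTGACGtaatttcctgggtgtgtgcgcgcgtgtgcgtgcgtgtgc
Pcsk2 (chr2:143546023-143546132, plus strand): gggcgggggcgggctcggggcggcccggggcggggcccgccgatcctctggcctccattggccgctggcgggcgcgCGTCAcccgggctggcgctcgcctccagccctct
Scg3 (chr9:75684057-75684166, minus strand): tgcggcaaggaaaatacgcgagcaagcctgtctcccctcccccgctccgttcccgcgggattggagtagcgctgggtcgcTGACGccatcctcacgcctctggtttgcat
The first base of the full CRE lay 78 bases upstream of the start in Pcsk1, 68 in Scg2 and 72 in Chgb, and the core began 44 bases upstream in Chga, 34 in Pcsk2 and 30 in Scg3. Pcsk1 held a further core 50 bases upstream. In Scg5 the cores lay outside the stretch printed for the others, at 175 bases upstream and within the transcribed bases. These are letter matches only, no binding was measured, and a link between the motifs and the changes was not tested.

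Among the granins, Chga, which encodes chromogranin A, had the highest mean level per kilobase of the 10 genes over the 4 lines other than G9577. Chga (mm9 chr12:103793179-103803237, plus strand) stood at 293, 419.9, 515, 556 and 1.21 CPM with MYCN on in G4314, G9351, G9488, G9529 and G9577, against 1569, 1559, 951, 1489 and 11.8 CPM with MYCN off in the same lines. Every line was lower with MYCN on, and outside G9577 the conditions did not overlap. Its fitted log2 change was -1.87 (SE 0.31, 3.65-fold lower, edgeR adjusted p = 0.00694), and without G9577 it was -1.64 (SE 0.24, adjusted p = 0.00372). Chga made up 21.6% to 36.8% of the summed CPM of the 10 genes with MYCN on and 33.6% to 45.8% with MYCN off in the other 4 lines.

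Chgb (mm9 chr2:132607014-132620808, plus strand), which encodes chromogranin B, was at 116, 132, 126, 100.1 and 0.559 CPM with MYCN on in the same order of lines, against 313, 267, 169, 196 and 3.90 CPM with MYCN off. It was lower with MYCN on in all 5 lines, without overlap between the conditions in the other 4, and 2.20-fold lower in the fit (log2 change -1.13, SE 0.25, edgeR adjusted p = 0.0168; -0.95 without G9577, adjusted p = 0.00574). That call was lost without G4314 (adjusted p = 0.0659) and without G9351 (adjusted p = 0.0547). Scg2 (mm9 chr1:79431244-79436665, minus strand), the secretogranin II gene and precursor of the peptide secretoneurin, was at 93.3, 33.2, 21.7, 63.5 and 0 CPM with MYCN on, against 709.9, 155, 82.9, 276 and 10.2 CPM with MYCN off. G4314 was the highest line in both conditions, and its MYCN-on level lay above the MYCN-off level of G9488, so the conditions overlapped between lines although each line was lower with MYCN on. Scg2 was 6.05-fold lower in the fit (log2 change -2.60, SE 0.45, edgeR adjusted p = 0.00804) and 4.92-fold lower without G9577 (log2 change -2.30, SE 0.17, adjusted p = 0.00109).

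Scg3 (mm9 chr9:75491173-75531863, minus strand), whose product is known to link chromogranin A aggregates to the granule membrane, was at 226, 259, 232, 242 and 0.28 CPM with MYCN on, against 269.8, 343, 248, 294 and 1.67 CPM with MYCN off. All 5 lines were lower with MYCN on, but by little outside G9577, and the conditions overlapped. The log2 change was -0.40 (SE 0.23, edgeR adjusted p = 0.202), and -0.25 without G9577 (SE 0.10, adjusted p = 0.0977), so neither fit called it. Vgf (mm9 chr5:137506165-137509221, plus strand), a granin-like gene induced by nerve growth factor whose product is a peptide precursor, had 10.2, 11.4, 10.7, 12.8 and 1.31 CPM with MYCN on, against 15.1, 28.7, 7.43, 7.49 and 1.0 CPM with MYCN off. It was lower with MYCN on in G4314 and G9351 and higher in G9488, G9529 and G9577, with a fitted log2 change of -0.08 (SE 0.36, edgeR adjusted p = 0.878; -0.16 without G9577, SE 0.37, adjusted p = 0.765). Its sign turned without G4314 (0.05) and without G9351 (0.25), with no call in either fit. The G9577 values of Vgf rest on 14 reads with MYCN on and 9 with MYCN off.

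Both convertases fell. Pcsk1 (mm9 chr13:75227435-75269946, plus strand), which encodes the convertase of the early regulated pathway, had the largest fitted fall of the 9 genes tested. Its level was 86.5, 18.2, 5.11, 16.8 and 0.373 CPM with MYCN on in G4314, G9351, G9488, G9529 and G9577, against 553, 130.4, 51.7, 78.5 and 3.90 CPM with MYCN off. All 5 lines were lower with MYCN on, with line log2 changes between -3.29 in G9488 and -2.21 in G9529, although the level itself differed so widely between lines that the conditions overlapped. The fit gave -2.80 (SE 0.20, 6.98-fold lower, edgeR adjusted p = 0.00266) and, without G9577, -2.73 (SE 0.18, 6.65-fold lower, adjusted p = 0.00109).

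Pcsk2 (mm9 chr2:143371869-143642018, plus strand), which encodes the convertase that follows in the same pathway, was at 101.8, 64.9, 62.0, 49.3 and 0 CPM with MYCN on, against 513, 231, 126, 256 and 1.89 CPM with MYCN off. Outside G9577 every MYCN-on level lay below every MYCN-off level. Its log2 change was -2.02 (SE 0.34, 4.04-fold lower, edgeR adjusted p = 0.00714), and -1.89 without G9577 (SE 0.23, adjusted p = 0.00231). Pcsk2 shares 337 exon bases with antisense genes, and counting without strand cannot tell those reads apart; the other 9 genes share none. Per kilobase, the ratio of Pcsk1 to Pcsk2 levels was 1.6, 0.527, 0.155 and 0.643 with MYCN on in G4314, G9351, G9488 and G9529, against 2.03, 1.06, 0.771 and 0.578 with MYCN off. The ratio was lower with MYCN on in all of these lines except G9529, and in G9577 it rested on 4 and 0 reads with MYCN on and on 35 and 17 reads with MYCN off.

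Scg5 (mm9 chr2:113616470-113669248, minus strand), the chaperone gene, was at 72.6, 91.4, 56.4, 62.8 and 0.0932 CPM with MYCN on, against 197, 163, 99.3, 101.8 and 0.891 CPM with MYCN off. It was lower with MYCN on in every line, and outside G9577 the conditions did not overlap. It fell less than Pcsk2, whose product it assists, with a log2 change of -1.03 (SE 0.22, 2.04-fold lower, edgeR adjusted p = 0.0140; -0.94 without G9577, adjusted p = 0.00392); the difference between the genes was not tested. The call was lost without G4314 (adjusted p = 0.0600).

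Cpe (mm9 chr8:67071349-67171837, minus strand) behaved differently in level. It was at 352, 349.7, 372, 417 and 554 CPM with MYCN on, against 479.5, 528, 395, 673 and 1084 CPM with MYCN off, so G9577 was the highest line for Cpe and the lowest or near the lowest for the other 9 genes. All 5 lines were lower with MYCN on, G9488 by only 0.09 on the log2 scale. The fitted change was -0.56 (SE 0.15, 1.47-fold lower, edgeR adjusted p = 0.0288), and -0.44 without G9577 (SE 0.13, adjusted p = 0.0364). The call was lost without G4314 (adjusted p = 0.0703), G9351 (0.0859) or G9529 (0.0690).

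Resp18 (mm9 chr1:75268777-75274955, minus strand) was detected mainly in G4314 and G9529. It had 64, 1, 0, 15 and 0 reads with MYCN on in G4314, G9351, G9488, G9529 and G9577, against 519, 1, 8, 98 and 1 reads with MYCN off. The filter on low counts removed it from the fit of all lines. With no filter its log2 change was -2.77 (SE 0.49, edgeR adjusted p = 0.00573), a value that rests on G4314 and G9529, since the other lines held at most 8 reads. Without G9577 it passed the filter, with a log2 change of -2.75 (SE 0.42, edgeR adjusted p = 0.00420).

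**Figure D2:**
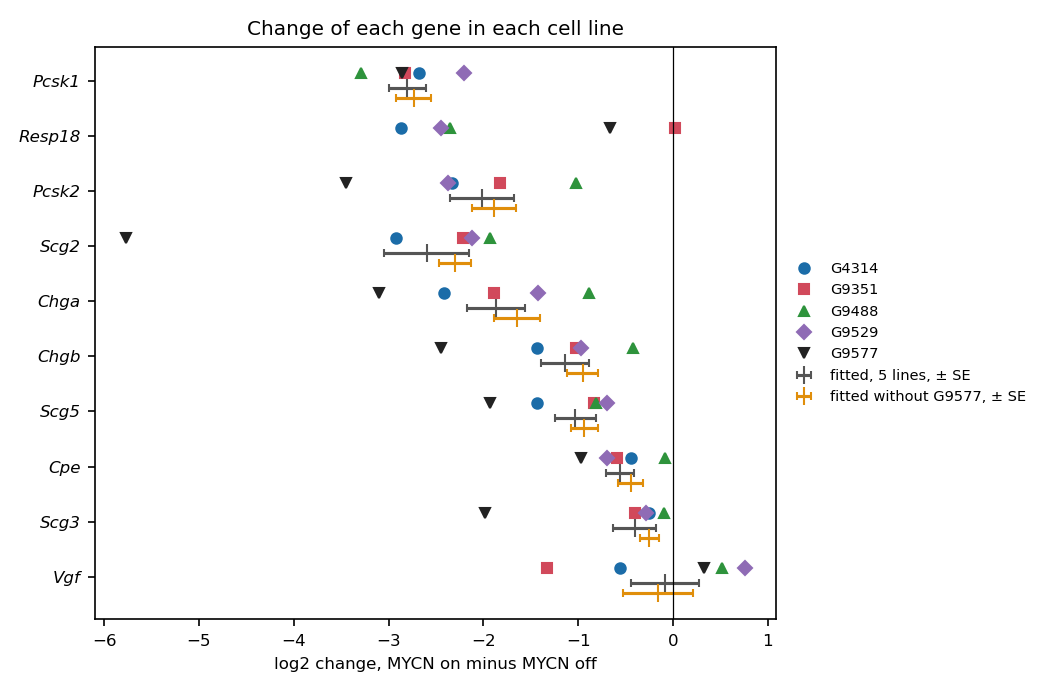
Log2 change (MYCN on minus MYCN off, horizontal axis) of each of the 10 genes in each of the 5 lines (symbols), with the fitted change ± SE over all 5 lines (grey) and without G9577 (orange); Resp18 was below the filter and has no fitted bar. The Pcsk1 symbols lie between -3.29 and -2.21, Scg2 in G9577 lies at -5.77, and the Vgf symbols fall on both sides of 0.

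The lines differed in how far the 10 genes moved together. The median log2 change over the 10 genes was -1.88 in G4314, -1.17 in G9351, -0.85 in G9488, -1.19 in G9529 and -2.21 in G9577. The G9577 median lies between the changes of Scg3 (3 reads with MYCN on, 15 with MYCN off) and Chgb (6 and 35). It therefore rests on few reads and depends on the prior count. Over all genes tested the median was -0.23 in G9577 and between -0.04 and 0 in the other lines. Among the 4 lines other than G9577, G4314 had the largest fall for 5 of the 10 genes and G9488 the smallest fall for 6. Pcsk1 went the other way, with its largest change of all lines in G9488. The summed level of the 10 genes was 1357, 1380, 1400.0, 1522 and 558 CPM with MYCN on in G4314, G9351, G9488, G9529 and G9577, against 4665, 3405, 2131, 3381 and 1120.0 CPM with MYCN off. The MYCN-on sums of the first 4 lines therefore lay close together, while their MYCN-off sums spread widely. In G9577 almost the whole sum was Cpe, and without Cpe it was 3.82 CPM with MYCN on, against 35.4 CPM with MYCN off.

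Levels per kilobase, which allow genes to be compared, were ordered in the 4 lines other than G9577. With MYCN on, Chga stood highest at 237 ± 62.1 CPM per kilobase, followed by Cpe at 178 ± 14.9 and Scg3 at 109 ± 6.67 (SD, n = 4 lines). Scg5 (57.7 ± 12.4), Chgb (43.3 ± 5.05), Scg2 (21.3 ± 13.0), Pcsk2 (14.7 ± 4.76), Pcsk1 (12.6 ± 14.7), Vgf (4.41 ± 0.449) and Resp18 (2.75 ± 4.16) came after. Ranges of Chga and Cpe overlapped, Cpe and Scg3 did not, nor did Scg3 and Scg5, and every later gene overlapped its neighbour. With MYCN off, Chga was at 740 ± 157 CPM per kilobase and Cpe at 248 ± 55.8, without overlap, then Scg3 (131 ± 18.6), Scg2 (123 ± 113), Scg5 (114 ± 39.0), Chgb (86.3 ± 24), Pcsk1 (80.8 ± 93.5), Pcsk2 (59.4 ± 34.7), Resp18 (19.9 ± 31.4) and Vgf (5.75 ± 3.92), where Scg3 was below Cpe and every later pair of neighbours overlapped. Chga thus had the highest mean of the 10 in both conditions, and Scg2 stood lower in the order with MYCN on than with MYCN off.

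In G9577, the granule genes other than Cpe and Vgf were at most 4.75% of the median of the other 4 lines in the same condition. Chga was at 0.259% with MYCN on and 0.774% with MYCN off, Scg3 at 0.118% and 0.592%, and Pcsk1 at 2.13% and 3.73%. Cpe was at 153% with MYCN on and 215% with MYCN off. Insm1, a neuroendocrine transcription factor, was at 0.279% with MYCN on and 0.377% with MYCN off, and the epithelial gene Epcam was at 0.148% and 0.512% in the same conditions. The 12 neuroendocrine markers were uneven, from Dll3 at 0% in both conditions to Ncam1 at 37.8% with MYCN on and 25.1% with MYCN off.

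**Figure D3:**
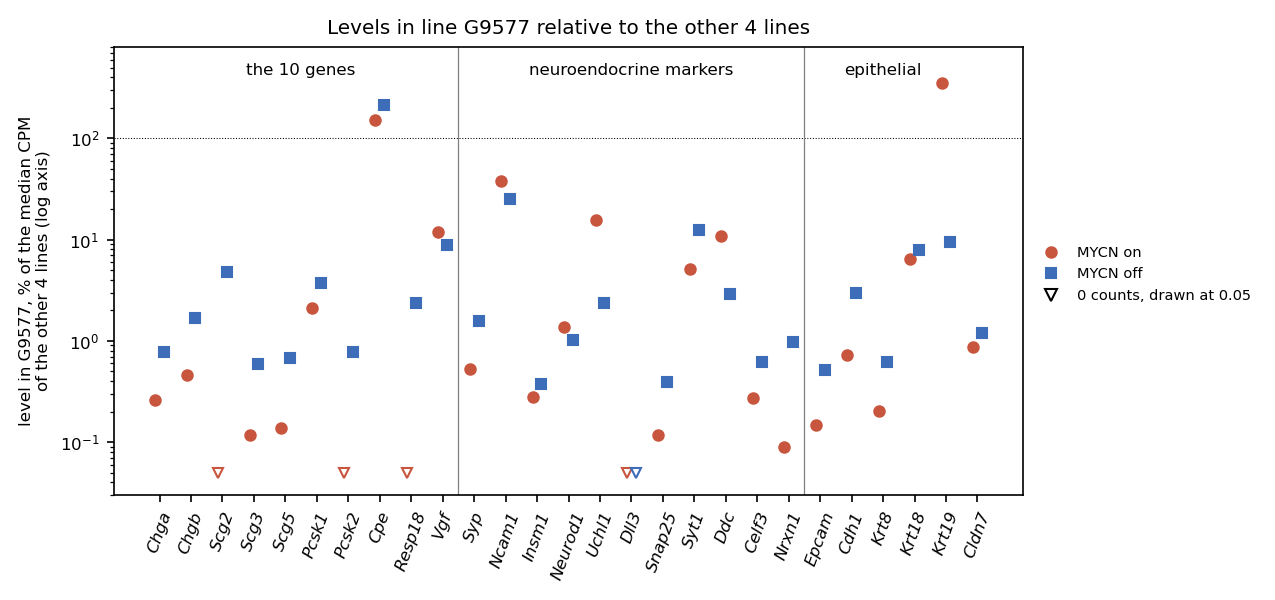
Level in line G9577 as a percent of the median CPM of the other 4 lines in the same condition (vertical log axis), with MYCN on (red circles) left of MYCN off (blue squares) for the 10 genes, neuroendocrine markers (1 of the 12 is not drawn) and 6 epithelial markers; open triangles mark 0 counts and are drawn at 0.05. Among the 10 genes, Cpe is the one above 100% (dotted line), at 153% with MYCN on and 215% with MYCN off; the epithelial marker Krt19 is also above it with MYCN on, from 9 reads.

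Genes that act beside the 10 were read from 4 lists. The peptide maturation list held 8 genes, among them the convertase inhibitor gene. Of these, 7 were tested, 3 fell and none rose, beside 15.6% lower and 15.3% higher among all genes tested. None reached an unadjusted p under 0.05 for higher with edgeR, DESeq2 or limma-voom. The list's median log2 change was -1.11, against -0.08 over all genes, and -0.94 without G9577. Qpct, which forms the pyroglutamate end of many peptides, was 4.27-fold lower (log2 change -2.09, SE 0.24, edgeR adjusted p = 0.00347; -2.08 without G9577). Pcsk1n, the inhibitor of the Pcsk1 enzyme, was 3.05-fold lower (-1.61, SE 0.19, adjusted p = 0.00368; -1.51 without G9577), and it shares 135 exon bases with Eras. Pam, the amidating enzyme, was 2.16-fold lower (-1.11, SE 0.16, adjusted p = 0.00513; -0.94 without G9577), at 101, 85.9, 126, 81.8 and 91.5 CPM with MYCN on in G4314, G9351, G9488, G9529 and G9577, against 219, 187, 209, 147 and 309.6 CPM with MYCN off. Unlike the granins, Pam in G9577 lay within the range of the other lines with MYCN on and above it with MYCN off. Without G9577 the list had 5 genes lower, with Qpctl (adjusted p = 0.0334) and Cpxm1 (0.0370) added.

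Of the 7 other convertases, 3 fell and 1 rose, beside 15.6% lower and 15.3% higher among all genes tested, so 1 higher of 7 is near the share over all genes. The median log2 change was -0.49, and -0.61 without G9577. Furin, the convertase of the constitutive pathway, was 1.70-fold lower (-0.76, SE 0.13, edgeR adjusted p = 0.00714; -0.69 without G9577), and Pcsk7 1.62-fold lower (-0.69, SE 0.14, adjusted p = 0.0125; -0.71 without G9577), a call lost without G9351 (0.0510); 404 exon bases of Pcsk7 are shared with Rnf214 and Tagln. Pcsk5 was 5.13-fold lower (-2.36, SE 0.55, adjusted p = 0.0191; -2.75 without G9577) but not in G9577, where 7 reads were counted with MYCN on and 5 with MYCN off, and the call was lost without G4314 (0.0722), G9351 (0.0734) or G9529 (0.0573). Pcsk4, a convertase known from germ cells, was higher with MYCN on in 4 of 5 lines (log2 change 1.0, SE 0.32, adjusted p = 0.0493), and that call was lost without G9351 (0.131), G9488 (0.0911), G9529 (0.119) or G9577 (0.0648). Pcsk6 did not pass with all 5 lines (adjusted p = 0.201) but did without G9577 (log2 change 1.38, SE 0.27, adjusted p = 0.00982). The number of these convertases called lower was 1 without G9351.

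Among 23 genes of the granule membrane and its transport, 21 were tested, 12 fell and none rose, beside 15.6% lower and 15.3% higher among all genes tested. The median log2 change was -1.0, and -0.93 without G9577. None of them reached an unadjusted p under 0.05 for higher with edgeR, DESeq2 or limma-voom, apart from 1 gene where the filter was omitted and 1 without G4314. Slc18a1, the vesicular monoamine transporter, fell furthest (7.58-fold, log2 change -2.92, SE 0.43, edgeR adjusted p = 0.00509; -3.17 without G9577), at 15.9, 5.92, 0.651, 9.69 and 0.559 CPM with MYCN on in G4314, G9351, G9488, G9529 and G9577, against 186, 82.7, 5.09, 47.7 and 0.668 CPM with MYCN off. The exocytosis genes Cadps2 (2.35-fold lower, adjusted p = 0.00598; 2.09-fold without G9577) and Rab27a (2.08-fold, adjusted p = 0.00674; 1.91-fold without G9577) were lower in all 5 lines. Without G4314, 6 genes of this list were called, and without G9577, 13.

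Of 28 prohormone precursors, 7 passed the filter, 2 fell and 1 rose, beside 15.6% lower and 15.3% higher among all genes tested. The 1 higher of 7 is near the share over all genes, and with so few genes tested, 2 lower is not read as a result about the list. The median log2 change was -0.88, and -0.59 without G9577. Calca, the precursor of calcitonin and CGRP, was at 21.8, 16.7, 4.37, 6.18 and 0.186 CPM with MYCN on in G4314, G9351, G9488, G9529 and G9577, against 419, 352, 29.2, 22.2 and 5.68 CPM with MYCN off. G4314 and G9351 were far above the rest with MYCN off, and Calca was 11.2-fold lower in the fit (log2 change -3.49, SE 0.45, edgeR adjusted p = 0.00408; -3.42 without G9577). Iapp, the amylin precursor, was 3.94-fold lower (-1.98, SE 0.35, adjusted p = 0.00859; -2.01 without G9577), with a single read in each G9577 library. Grp, the precursor of gastrin-releasing peptide, was the one that rose (log2 change 1.31, SE 0.36, adjusted p = 0.0363; 1.31 without G9577). It was at 28.0, 9.57, 7.81 and 18.9 CPM with MYCN on in G4314, G9351, G9488 and G9529, against 10.5, 1.88, 3.23 and 14.4 CPM with MYCN off, and had 0 reads in both G9577 libraries. Its call was lost without G4314 (0.125), G9351 (0.111) or G9488 (0.0846).

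**Figure D4:**
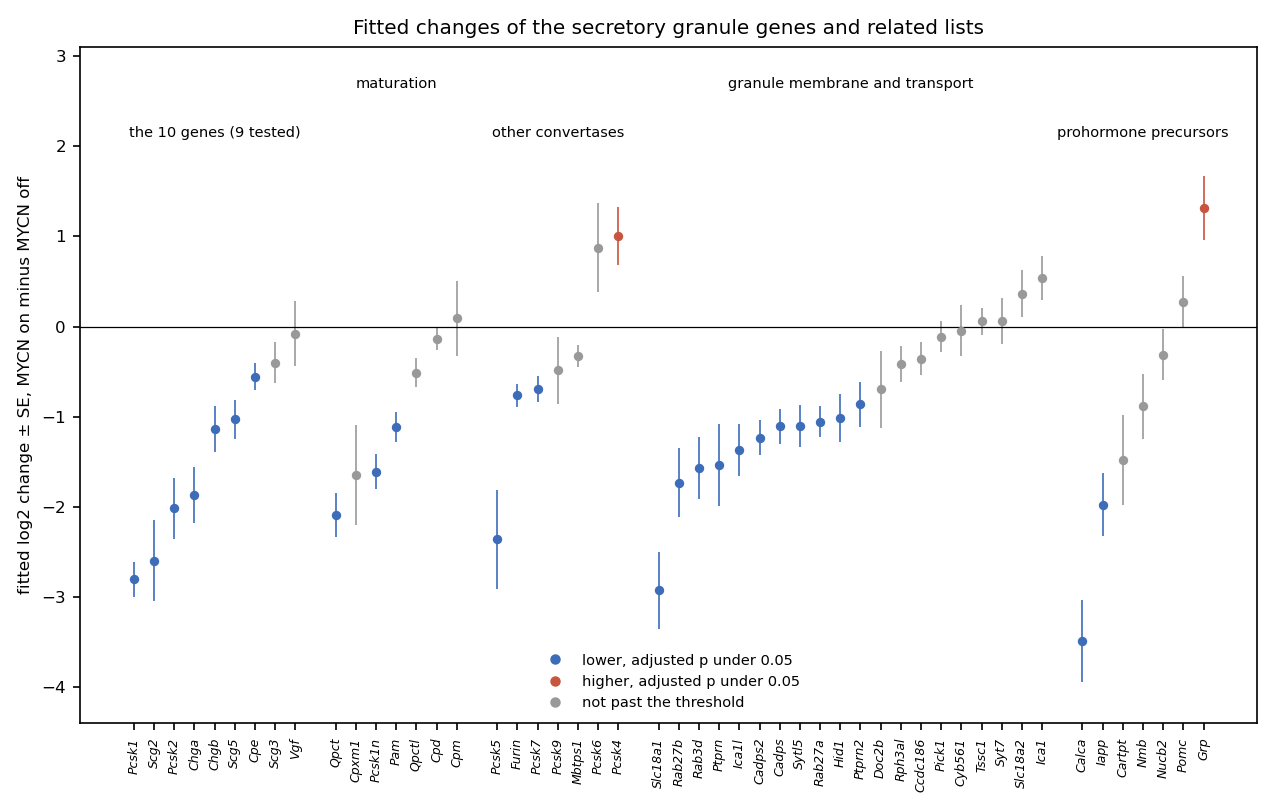
Fitted log2 change ± SE (MYCN on minus MYCN off, vertical axis) of the 9 tested genes and of the 4 lists of related genes over all 5 lines (1 tested gene of the granule membrane and transport list is not drawn), blue where called lower, red where called higher and grey where the test was not passed. Most called genes lie below 0, and Pcsk4 and Grp are the 2 called above it.

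Correlations between the genes were computed across libraries as a description. Over the 8 libraries without G9577, Pearson's r of log2 CPM ran from 0.484 to 0.950 for the 21 pairs of the 7 genes other than Cpe, Vgf and Resp18, from 0.137 to 0.840 for pairs with Cpe and from 0.137 to 0.596 for pairs with Vgf. With G9577 included the 21 pairs ran from 0.778 to 0.997 over 10 libraries and the pairs with Cpe from -0.631 to -0.188. The genes most like Chga over 10 libraries were Cadps2 (r = 0.994; 0.910 over the 8), Cystm1 (0.993; 0.882) and Inha (0.992; 0.942), and those most like Pcsk1 were Atp6ap2 (0.984; 0.966) and Myo16 (0.979; 0.954). The libraries behind these values come in pairs from 1 line, share the MYCN contrast and, over all 10, are spread mostly by G9577.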

How the data were processed

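The deposited counts are whole numbers of reads per gene; per the submitters' processing notes, reads were handled with bcl2fastq 1.8.4, STAR 2.5.2a and featureCounts 1.6.0 on mm9, and per the file headers counting ignored strand. Poly(A) RNA was prepared with a kit that does not mark strand, per the labels. The 10 genes and the 4 lists were chosen with earlier results of these data known. Genes were filtered (filterByExpr, minimum count 10), TMM-scaled and tested with edgeR 4.0.16 in R 4.3.3 (quasi-likelihood F test, two-sided, line as a block, Benjamini-Hochberg over 12835 genes, threshold 0.05, 4 residual degrees of freedom, biological coefficient of variation 28.5%). The replicate block is the cell line itself: same-line libraries deviated together (r 0.721 to 0.873), against at most 0.273 between lines. Nothing says that cultures were repeated. With the line as a block, p-values set the change against how far that change varied between these lines, not against differences in level. CPM are TMM-scaled; line changes use log2 CPM with a prior count of 2. Named are the 10 genes, Mycn, up to 4 called genes of each list by smallest p, list genes in a direction held by 5 or fewer, and the 3 genes most like Chga and Pcsk1; Qpctl, Cpxm1 and Pcsk6 were named after their values were seen, and some genes that the rule names are not reported here. DESeq2 1.42.0, limma-voom (3.58.1), RLE factors, library size alone, no filter, a stricter filter (at least 50 counts in 5 libraries), no block and each line left out were alternatives. The fitting code was tested on simulated data. Promoters came from RefSeq and were not tied to mm9 coordinates.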

Additional observations from a re-analysis of the deposited data

Results flagged for a closer look

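Line G9577 lay far from the other 4 in 14 of 30 groups of 5 values (a level in 1 condition or a change, for each of the 10 genes), each time at the low end; chance flags about 1 group in 20, and these groups share the same 2 libraries. The outlying levels with MYCN on were 1.21 CPM for Chga, 0.559 for Chgb, 0 for Scg2, 0.28 for Scg3, 0.0932 for Scg5, 0 for Pcsk2 and 1.3 for Vgf. With MYCN off they were 11.8 CPM for Chga, 3.90 for Chgb, 1.67 for Scg3, 0.891 for Scg5 and 1.89 for Pcsk2. Its log2 changes of Scg2 (-5.77) and Scg3 (-1.98) lay below those of the other lines, and both values depend on the prior count. The Scg2 value sets 0 reads with MYCN on against 92 with MYCN off, and the Scg3 value sets 3 against 15. Vgf differed in direction between lines of the same genotype, by -1.32 in G9351 and by 0.76 in G9529, and with 1 library per line and condition that difference was not tested.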

How the results depend on the processing

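Of 311 values of named genes under alternatives, 257 kept their direction and their side of the threshold, 52 kept the direction but not the call, and 2 changed sign: Vgf, not called in any fit, went to 0.05 without G4314 and to 0.25 without G9351, against -0.08 with all lines, and ran from -0.34 to 0.25 as each line was left out. DESeq2, limma-voom, RLE factors, library size alone and the stricter filter all called the same 7 of the 10 genes; omitting the filter called 8. No replicate block moved the counts most: 59 genes lower and 215 higher, with 0 of the granule genes lower (1 at an unadjusted p under 0.05 with edgeR), 1 maturation gene lower, 0 granule membrane genes lower, 0 other convertases lower or higher and 0 precursors lower or higher. With no replicate block and G9577 left out, a setting chosen after seeing the data, 3 of the 10 genes (Chga, Chgb and Pcsk2), 287 genes lower and 548 higher were called. DESeq2 called 5 maturation genes lower, limma-voom likewise 5, and the number of other convertases called higher was 0 with RLE factors, 0 with library size alone and 0 with the stricter filter.

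Leaving out each line in turn gave 4 to 8 of the 10 genes lower, 916 to 2249 genes lower and 813 to 2244 higher, 6 to 13 granule membrane genes lower, 3 to 5 maturation genes lower, 1 to 3 other convertases lower and 0 to 1 higher, and 0 to 1 precursors higher. Without a filter the median log2 change over all genes was -0.24, against -0.08 in the fit reported and -0.12 with RLE factors. Depth limits Resp18, and the granule genes in G9577, where several rest on fewer than 20 reads.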
